A study of Rattus norvegicus with 18 samples.

Results

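The late phase of ageing in the rat spinal cord was described by comparing 3 arrays of cord at 30 months with 3 arrays of cord at 18 months. These are 6 of the series' 18 arrays, chosen by their titles and not by any measured value. The whole series holds oculomotor nucleus and spinal cord at 6, 18 and 30 months, with 3 Affymetrix RA230 arrays for each tissue and age. No genotype, treatment or sex is given for any group, and the labels of 2 oculomotor arrays name the strain F344BN, a Fischer 344 by Brown Norway rat. Per the design text, each array carried RNA pooled from 4 animals, so a replicate is a pool and the spread between replicates is that between pools. The same text sets 18 and 30 months against 6 months and names no test of 30 against 18 months. It does not say which level of the cord was taken.

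The spinal cord holds motor neurons and interneurons in its grey matter and long myelinated tracts in its white matter, with astrocytes, oligodendrocytes and microglia around them. Microglia are the resident macrophages of the nervous system. In ageing rodents they are known to express more antigen-presentation, complement and phagocytic genes, most of all in white matter, while the sterol synthesis that serves myelin is highest in youth. A comparison of 30 with 18 months asks how such transcripts stand at the 2 later ages alone.

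Signals are on the linear scale of the array software, brought to a common trimmed mean, and differences are log2 values of 30 minus 18 months. Array medians of the 9 cord arrays lay between 259 and 265, and 18.3% to 21.0% of probe sets were at the floor of 66.4, below which signals were set equal. The tissue label was borne out by regional genes: Hoxa5, a patterning gene of the trunk axis, had signals of 750 to 1097 on the cord arrays, and Hoxd8 of 1209 to 2106. On the oculomotor arrays Hoxa5 lay at 8.30 to 108 and Hoxd8 at 48.5 to 122. Replicate 3 at each of the 2 ages stood apart from the other 4 arrays: on the first principal component over all 18 arrays, computed after each group's mean was subtracted, which held 27.1% of the variance, its scores were -14.7 at 30 months and -13.8 at 18 months, against 5.43 to 9.01 for the rest. Of the remaining arrays of the series, 1 cord array at 6 months (-12.1) and 1 oculomotor array at 30 months (-16.6) had low scores too. Among the 6 arrays at 30 and 18 months, those of replicate 3 had the highest 3′/5′ signal ratio of the hexokinase control. It was 2.19 at 30 months and 1.97 at 18 months, against 1.66 and 1.82 at 30 months and 1.89 and 1.67 at 18 months. The other controls did not rank both arrays first among the 6, though actin ranked replicate 3 first within each age. GAPDH had 0.99, 1.09 and 1.08 at 30 months and 1.12, 1.06 and 1.14 at 18 months. Actin had 1.28, 1.16 and 1.40 at 30 months and 1.15, 1.13 and 1.27 at 18 months. The low-scoring arrays of the other groups had the highest actin ratio of their group as well. It was 1.26 against 1.01 and 0.98 in the cord at 6 months, and 1.54 against 1.31 and 1.35 in the oculomotor nucleus at 30 months. Replicate 2 of the cord at 6 months had a hexokinase ratio of 2.12 with a score of 3.19. On the replicate 3 arrays the signals of Hbb, a globin of red cells, were 15256 at 30 months and 17852 at 18 months. The other arrays had 9307 and 11550 at 30 months and 8710 and 11986 at 18 months. Alas2, a second blood marker, was highest on replicate 3 at 18 months but not at 30 months. Its signals were 801, 1066 and 970 at 30 months, against 778, 1079 and 1857 at 18 months. Whether these values have a part in the differences below was not tested. Several genes and lists below are given without both arrays as well, and the plot of list medians shows both values for each list in it.

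Few transcripts separated the 2 ages. Of 9482 probe sets tested, 1 passed an adjusted p of 0.05 in limma, or 0.0105%, and it was higher at 30 months. At an unadjusted p under 0.05 there were 203, or 2.14%, of which 106 were higher (1.12%) and 97 lower (1.02%). The 3 arrays of each age did not overlap for 613 probe sets, or 6.46%, of which 295 were higher (3.11%) and 318 lower (3.35%) at 30 months. With 3 arrays a side, groups can lie clear of each other by chance, so lack of overlap in a gene below is a description and not a test. The median absolute difference was 0.077 on the log2 scale, and the median 95% interval reached 0.30 to either side, a factor of 1.23. For 99.1% of probe sets the interval lay within a 2-fold change in both directions, and for 86.8% within a 1.5-fold change. A difference of more than 2-fold was seen for 5 probe sets.

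**Figure D1:**
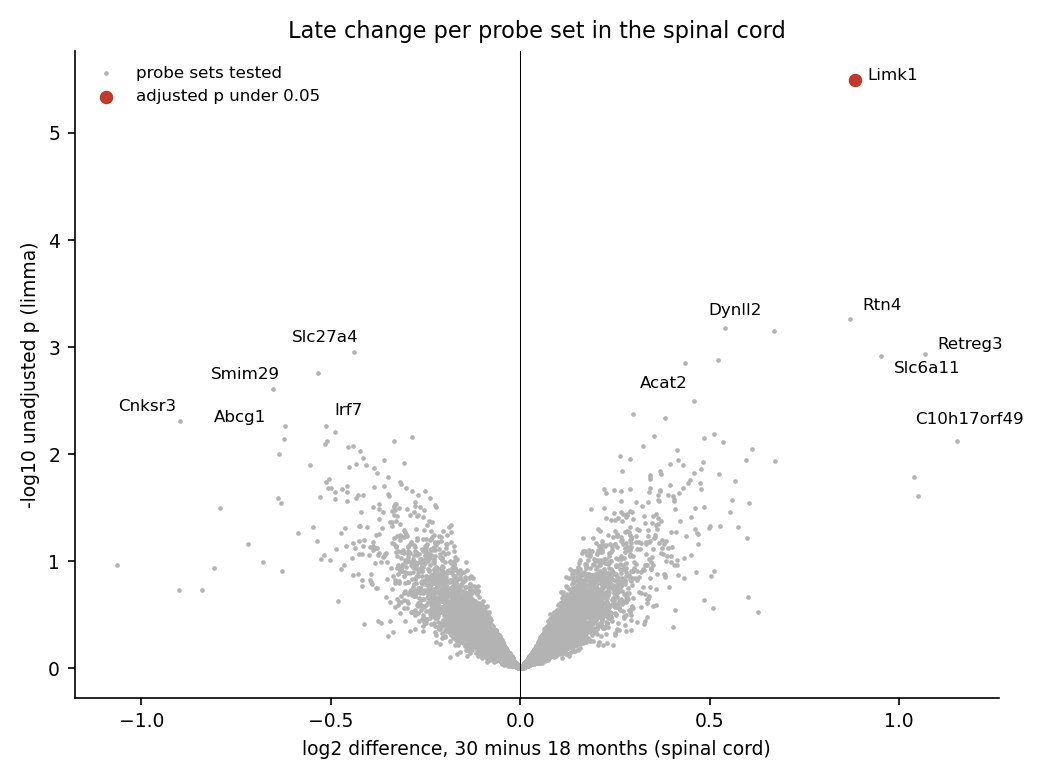
Each point is a probe set of the 9482 tested, with the log2 difference of 30 minus 18 months in the spinal cord on the horizontal axis and the unadjusted limma p, as -log10, on the vertical axis. Limk1, in red, is the probe set with an adjusted p under 0.05, and labels mark genes ranked first on the higher and the lower side.

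Limk1 encodes LIM domain kinase 1, which phosphorylates cofilin and so slows the severing of actin filaments. Its signals were 619.7, 699 and 667 at 30 months, against 330.4, 308 and 452 at 18 months. All 3 arrays at 30 months lay above all 3 at 18 months, with replicate 3 the highest at 18 months. Limk1 rose by 0.88 on the log2 scale (95% interval 0.60 to 1.17, limma adjusted p = 0.0305, n = 3 pools each). At 6 months its signals were 557, 574 and 580.3, above every array at 18 months and below every array at 30 months. The 30 minus 6 month difference was 0.21 (limma adjusted p = 0.627), in a comparison with 21 probe sets past the threshold, or 0.221%. In the oculomotor nucleus Limk1 had 382, 314 and 405 at 30 months and 374, 313 and 362 at 18 months, with overlapping arrays and a difference of 0.06. The call did not survive every choice of arrays or scaling. Of 20 alternatives it stayed past the threshold in 9, with differences of 0.78 to 1.05. At the same difference of 0.88, the limma adjusted p was 0.450 with the cord arrays alone. It was 0.9997 with only the 6 arrays at 30 and 18 months. The call therefore relied on the fit to all 18 arrays, in which the spread is estimated with the oculomotor arrays too. Leaving out replicate 1, 2 or 3 at 30 months, or replicate 1 or 2 at 18 months, gave limma adjusted p-values of 0.109, 0.372, 0.223, 0.402 and 0.434, while leaving out replicate 3 at 18 months gave 0.000529. Both arrays that stand apart left out together, the difference was 1.04 with an adjusted p of 0.00388.

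Among 34 tested genes of LIM kinase signalling and actin turnover, a list drawn up after the values were seen, 13 were higher and 21 lower, with a median of -0.01 against -0.0010 for all probe sets. Limk1 was the 1 member past the threshold. Rhoa, a small GTPase upstream of the LIM kinases, had 1748, 1838 and 1408 at 30 months, against 882, 1234 and 1514 at 18 months on 1 probe set. Replicate 3 at 30 months lay below replicate 3 at 18 months there, so the groups overlapped, and the difference was 0.49 (limma adjusted p = 0.9998). The other Rhoa probe set gave 0.24. Rhoc, a close relative, differed by -0.30 and Rac2, the Rac GTPase of blood-derived cells, by -0.51, neither past the threshold.

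Next in rank on the higher side were genes whose low values came from replicates 1 and 2 at 18 months. Rtn4, the reticulon known as Nogo that shapes the endoplasmic reticulum and inhibits axon growth from myelin, had signals of 4260.5, 4905 and 3913 at 30 months, against 1585, 2087 and 4041 at 18 months. Retreg3, a reticulon-like receptor for turnover of the endoplasmic reticulum, had 777, 738 and 874 at 30 months, against 230.3, 303 and 781 at 18 months. In both genes replicate 3 at 18 months sat among the 30-month arrays while replicates 1 and 2 lay far below them. The differences were 0.87 (95% interval 0.43 to 1.31) and 1.07 (0.48 to 1.65), and both had a limma adjusted p of 0.9998. At 6 months Rtn4 had 4538, 4704 and 3872 and Retreg3 had 714, 807 and 815, both overlapping the 30-month arrays. The other Rtn4 probe set did not share the dip, at 4265, 4233 and 5055 at 30 months and 4102, 3947 and 5003 at 18 months, a difference of 0.057. Of 15 tested reticulon and endoplasmic reticulum-shaping genes, again a list drawn up after the values were seen, 8 were higher and 7 lower with a median of 0.02.

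Slc6a11, the GABA transporter GAT-3 of astrocytes, had signals of 365, 309.5 and 251 at 30 months, against 131, 121 and 248 at 18 months. The groups did not overlap, though replicate 3 at 18 months was just under the lowest array at 30 months. Its difference was 0.95 (95% interval 0.43 to 1.48, limma adjusted p = 0.9998). Dynll2, a light chain of dynein and myosin V motors, had 1614, 1585 and 1819 at 30 months, against 957, 1098 and 1441 at 18 months, again without overlap. Its difference was 0.54 on this probe set, whereas the second Dynll2 probe set gave -0.0054 with overlapping arrays. Acat2, the cytosolic acetyl-CoA acetyltransferase at the head of sterol synthesis, had 1134, 788 and 914 at 30 months, against 611, 683 and 756 at 18 months, without overlap and with a difference of 0.46. At 6 months Acat2 had 1087, 1085 and 1089.9, above every array at the 2 later ages but 1 at 30 months.

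**Figure D2:**
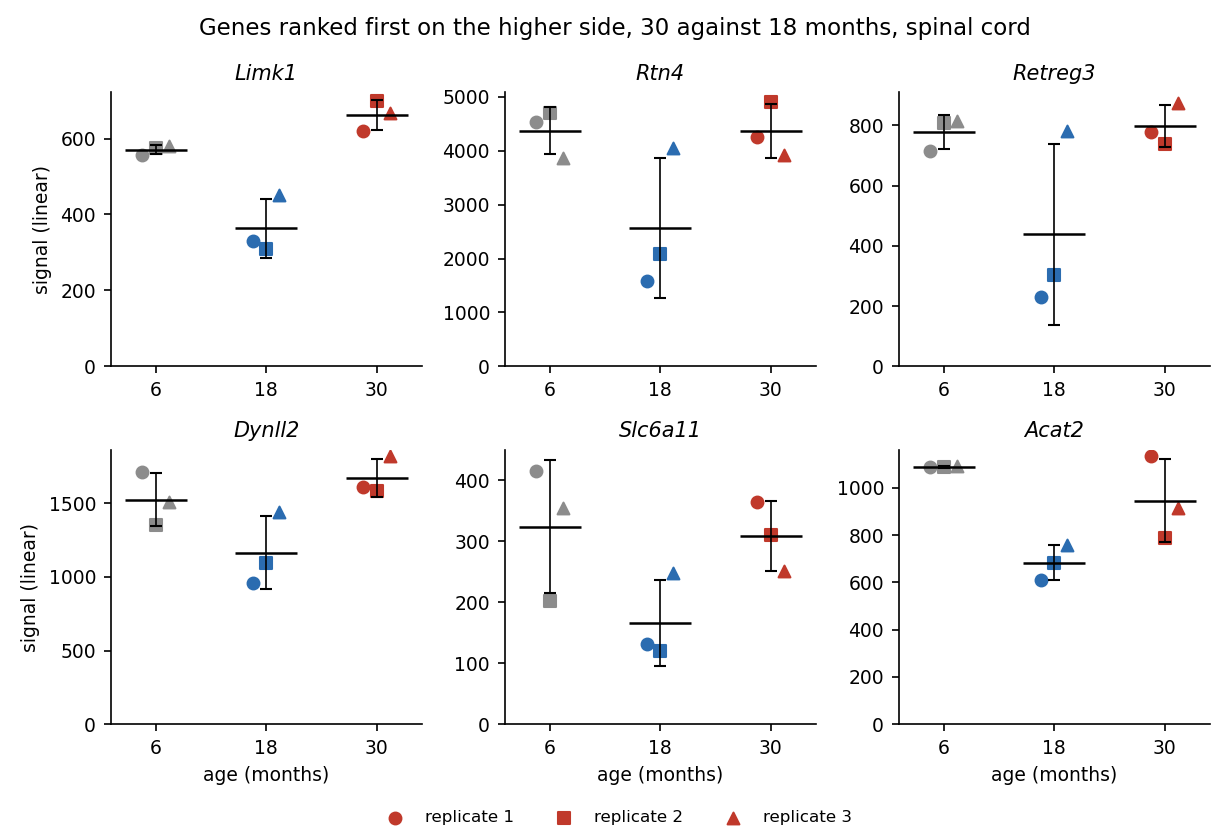
Signal on a linear scale against age in months for 6 genes of the spinal cord, with 1 point per array, the marker shape giving the replicate number, a bar at the mean and whiskers of 1 SD (n = 3). Limk1, Dynll2, Slc6a11 and Acat2 have all 30-month arrays above all 18-month arrays, while in Rtn4 and Retreg3 replicate 3 at 18 months lies with the 30-month arrays.

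The other 9 of the 15 genes ranked first on the higher side, Rhoa included, had differences of 0.30 to 1.15 and did not pass the threshold. Nudt18, a hydrolase of oxidised nucleotides, had 462, 423 and 373 at 30 months, against 289, 272 and 312 at 18 months, and Myef2, a repressor of the myelin basic protein gene described in mouse, had 497, 548 and 462 at 30 months, against 357, 343 and 417 at 18 months. Htr2c, the serotonin 2C receptor, had 1801, 1893 and 1772 at 30 months and 1334, 1521 and 1606 at 18 months. These 3 genes had no overlap between the ages, with differences of 0.52, 0.43 and 0.30, though the second Htr2c probe set gave 0.01. Kpnb1, the nuclear import receptor importin beta, differed by 0.38. Fbxo11, of an F-box ubiquitin ligase, differed by 0.35, Mrpl51, of the mitochondrial ribosome, by 0.32, and Swi5, of homologous recombination, by 0.53. Further Mrpl51 probe sets gave 0.23 and 0.13, both with overlapping arrays. C10h17orf49 had the largest difference of the 15, 1.15, with signals of 251, 255 and 207 at 30 months and 175, 104 and 54.3 at 18 months, with 1 array at 18 months under the floor. Of the 15 genes, 11 had no overlap between the ages, and of the 15 ranked first on the lower side, 12, against 6.46% of all probe sets. The genes were ranked on this same comparison, so these counts follow from the choice.

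None of those 15 genes on the lower side passed the threshold, and their differences ran from -0.90 to -0.29. Slc27a4, a fatty acid transport protein that activates long-chain fatty acids, headed the list with 984, 909.6 and 1147 at 30 months, against 1322, 1385 and 1396 at 18 months. The groups were clear of each other, with a difference of -0.44 (95% interval -0.68 to -0.20, limma adjusted p = 0.9998). Cnksr3, a scaffold protein of sodium transport described in kidney, had 389, 321 and 292 at 30 months, against 692, 571 and 595 at 18 months, a difference of -0.90. Its 6-month signals of 667, 454 and 240 overlapped the arrays of both later ages. Abcg1, which exports cholesterol from cells, differed by -0.62 on 1 probe set and by -0.034 and 0.074 on its other 2.

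The remaining genes on the lower side had varied roles. Irf7 and Stat2 belong to the interferon response. Rac2 and Cyba, which encodes p22phox, are parts of the phagocyte NADPH oxidase, and their differences were -0.51 and -0.42. In both, replicate 3 at 18 months lay within the range at 30 months. Cyba had 495, 523 and 773 at 30 months, against 814, 848 and 699 at 18 months, and without replicate 3 of both ages it differed by -0.71 (limma adjusted p = 0.0616). Rras, a Ras-like GTPase, She, an SH2 adaptor, and Fxyd5, a regulator of the sodium pump, differed by -0.49, -0.44 and -0.45. Kcnh1, the potassium channel EAG1, differed by -0.42. Begain, which binds the postsynaptic scaffold PSD-95, differed by -0.62, and Rundc3a, a neuronal partner of Rap GTPases, by -0.29. Dhdds, of dolichol synthesis, differed by -0.36 and Smim29, a small membrane protein, by -0.65.

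Microglial and macrophage genes had lower signals at 30 than at 18 months on replicates 1 and 2 and higher ones on replicate 3. In bulk tissue, fewer cells of a type and less RNA per cell cannot be told apart. Lgals3, the galectin of activated phagocytes, had signals of 1085, 1035 and 2501 at 30 months, against 2161, 2223 and 1427 at 18 months. Gpnmb, a glycoprotein of lipid-laden phagocytes, had 800.1, 748 and 1788 at 30 months, against 1708, 1648 and 795 at 18 months. In each gene replicates 1 and 2 at 30 months lay below replicates 1 and 2 at 18 months, and replicate 3 at 30 months was above replicate 3 at 18 months. The differences over all 6 arrays were -0.43 (95% interval -0.997 to 0.14) and -0.35 (-0.93 to 0.22), and neither passed. At 6 months Lgals3 had 412, 475 and 419 and Gpnmb had 359, 296 and 302, below every array of the 2 later ages. Lgals3 was 1.70 higher at 30 than at 6 months (limma adjusted p = 0.0127) and Gpnmb 1.69 higher (adjusted p = 0.0127).

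Over all probe sets 4706 differences were positive and 4776 negative, and without replicate 3 of both ages 4880 and 4602. Over the list of microglia and macrophage markers, 0 of 20 tested rose and 0 fell, with 1 positive and 19 negative differences and a median of -0.17. Without replicate 3 of both ages the median was -0.41 with all 20 negative, and between the 2 replicate 3 arrays it was 0.27 with all 20 positive. Cd37, a tetraspanin of leukocytes, had 209, 250.2 and 241 at 30 months, against 421, 336 and 237 at 18 months, a difference of -0.47. The Fc receptor genes Fcgr3a and Fcer1g differed by -0.30 and -0.17, and Mpeg1, the pore-forming perforin-2 of macrophages, by -0.22 on 1 probe set and -0.39 on the other. Fcgr2b, the inhibitory Fc receptor, differed by -0.28 and Plek, pleckstrin of blood-derived cells, by -0.23. Of 15 lipid-laden phagocyte genes tested, none passed, and their median was -0.07 with 11 negative. Without both replicate 3 arrays it was -0.19 with 13 negative, and Gpnmb passed. Grn, the lysosomal growth factor progranulin, was among them at -0.24, and Plin2, which coats lipid droplets, at -0.21.

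Class II antigen-presentation genes followed the same split between arrays. RT1-Bb, a class II beta chain, had 826, 966 and 1854 at 30 months, against 1442, 1705 and 923 at 18 months, and Cd74, the class II invariant chain, had 3299, 3182 and 5145 at 30 months, against 4019.7, 5099.9 and 3162 at 18 months. In both, the highest array at 30 months was replicate 3 and the lowest at 18 months was replicate 3. Of 7 class II genes tested none passed. Of these 6 were negative, the exception being RT1-Ba at 0.29, and the median was -0.09. Their median was -0.40 without both replicate 3 arrays and 0.70 between those 2 arrays. RT1-Da and RT1-Db1, further class II chains, differed by -0.08 (95% interval -0.48 to 0.33) and -0.13 (-0.67 to 0.40). Of 13 genes of class I loading and the immunoproteasome, none passed, with a median of -0.02, which was -0.18 without both replicate 3 arrays. Probe sets of RT1 genes can also bind transcripts of near-identical copies, so their gene names are uncertain.

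Complement genes were all on the lower side, with 0 of 8 past the threshold and a median of -0.21. C1qc, a chain of the C1q recognition molecule, had 616, 629.9 and 820.3 at 30 months, against 1049.9, 1321 and 656 at 18 months. Replicate 3 at 18 months lay inside the range of the 30-month arrays, and the difference was -0.50 (95% interval -0.91 to -0.10, limma adjusted p = 0.9998). The other C1q chains C1qa and C1qb differed by -0.27 and -0.32, and Serping1, the C1 inhibitor, by -0.35. C3, the central complement protein, had 2335, 2339 and 3188 at 30 months, against 2912, 3498 and 2359 at 18 months, a difference of -0.16. The complement median was -0.53 without both replicate 3 arrays and 0.39 between them.

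**Figure D3:**
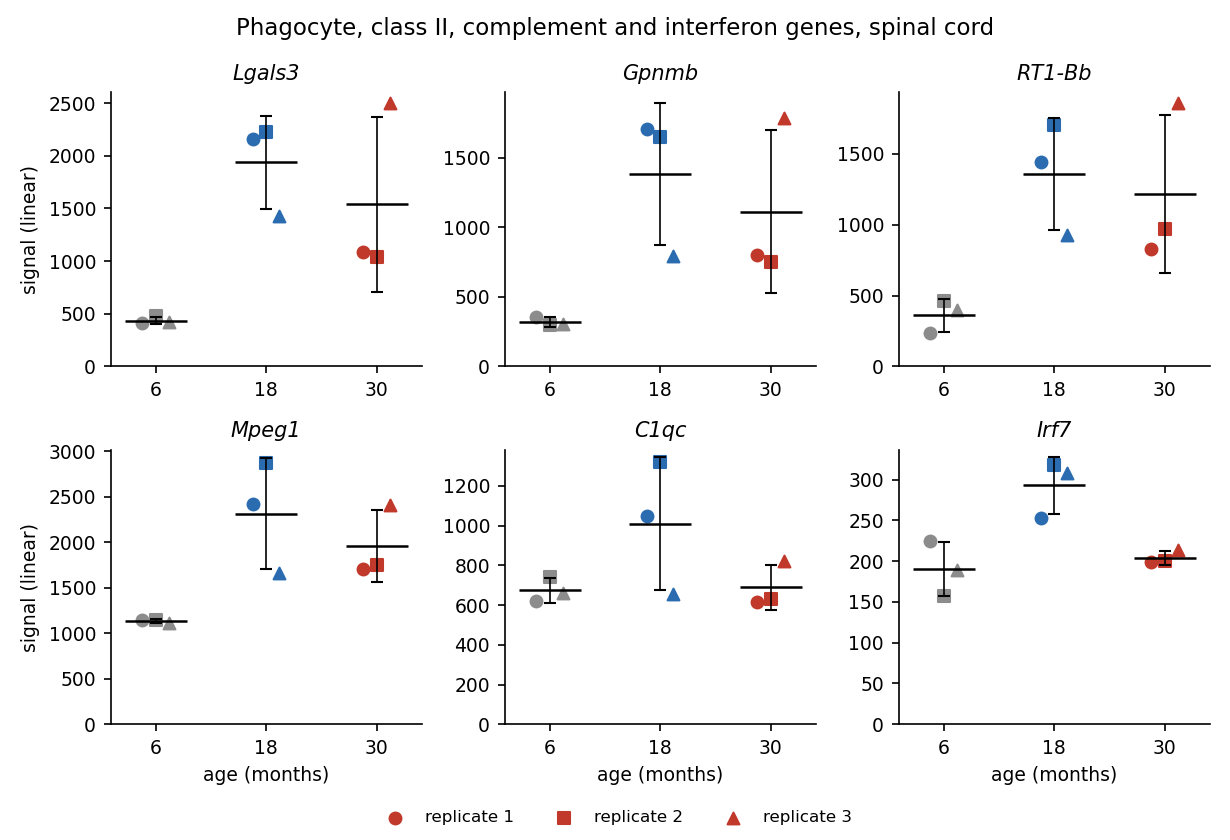
Signal on a linear scale against age in months for 6 immune genes of the spinal cord, with 1 point per array, the marker shape giving the replicate number, a bar at the mean and whiskers of 1 SD (n = 3). In the first 5 genes replicate 3 (triangle) is the lowest array at 18 months and the highest at 30 months, while the 30-month arrays of Irf7 all lie below those at 18 months.

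In the interferon response, Irf7 and Stat2 had every array at 30 months below every array at 18 months. Irf7, a transcription factor that drives type I interferon genes, had 199, 200.4 and 214 at 30 months, against 253, 318 and 309 at 18 months. Stat2, which carries the interferon signal to the nucleus, had 382, 383 and 394 at 30 months, against 501, 559 and 411 at 18 months. Their differences were -0.51 (95% interval -0.86 to -0.17) and -0.33 (-0.57 to -0.10), each with a limma adjusted p of 0.9998. Between the replicate 3 arrays alone Irf7 differed by -0.53 and Stat2 by -0.06. Lgals3bp, a secreted galectin-binding glycoprotein, differed by -0.36 and Ifitm3, a membrane protein that blocks viral entry, by -0.28. Of 12 members tested none passed, 11 were negative and 1 positive, and the median was -0.20. It was -0.22 with 10 negative without both replicate 3 arrays. With all arrays 3 members had no overlap, all 3 lower, against 3.35% of all probe sets. The third was Parp9, an interferon-induced member of the PARP family, chosen after its values were seen, with 237, 204 and 198 at 30 months, against 246, 242 and 262 at 18 months, a difference of -0.24. At 6 months Irf7 had 224, 158 and 189.6, which overlapped the 30-month arrays.

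Leaving out replicate 3 of both ages, a choice made after the values were seen, brought 9 probe sets past the threshold, or 0.0949%, of which 6 were higher (0.0633%) and 3 lower (0.0316%) at 30 months. The 6 were Rtn4 (1.33, limma adjusted p = 0.000133), Retreg3 (1.52, adjusted p = 0.000529), Limk1, Slc6a11 (1.42, adjusted p = 0.0225) and 2 probe sets with no gene name, at 0.95 and 0.94. The 3 were Gpnmb (-1.12, adjusted p = 0.00401), C1qc (-0.92, adjusted p = 0.0391) and Mpeg1 (-0.61, adjusted p = 0.0435). With 2 pools left at each of the 2 ages, the spread in this fit comes mostly from the other groups. The 2 arrays were picked for lying apart from their own groups in these same values. Leaving them out lowers the spread, so these p-values are not comparable with those over all arrays. The same holds for the other tests without these arrays. Lgals3 differed by -1.05 there and did not pass (adjusted p = 0.0971).

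Sterol synthesis genes gave small differences between 30 and 18 months. Of 20 tested, 17 had a positive difference, none passed the threshold, and the median was 0.09, against -0.0010 for all probe sets. Acat2 was the 1 member without overlap. Dhcr7, which makes the last step to cholesterol, had 512, 508 and 511 at 30 months, against 381, 362 and 520.2 at 18 months, where replicate 3 reached the 30-month level, and differed by 0.30. Pmvk, phosphomevalonate kinase, differed by 0.23 and Ebp, the sterol isomerase, by 0.28. Lss, lanosterol synthase, had 853, 740.0 and 742 at 30 months, against 648, 697 and 787 at 18 months. At 6 months Lss had 1193, 1159 and 1076. Every array of the 2 later ages lay below every 6-month array of Lss, and its difference from 18 to 30 months was 0.13 (95% interval -0.11 to 0.37). Sqle, squalene epoxidase, differed by 0.13, Cyp51, lanosterol demethylase, by 0.07 and Msmo1, the sterol C4-methyl oxidase, by -0.03. Without both replicate 3 arrays the list's median was 0.16 with 19 of 20 positive, and between those 2 arrays alone it was -0.09 with 7 of 20 positive.

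Genes of acetyl-CoA supply and fatty acid synthesis split evenly, 9 positive and 10 negative of 19, with a median of -0.01 and none past the threshold. Srebf1, a transcription factor of lipid synthesis, had 973, 1037 and 1273 at 30 months, against 1279, 1449 and 1300.0 at 18 months. Its groups were separated by a small margin, with a difference of -0.30 (limma adjusted p = 0.9998), while the second probe set gave -0.09. Elovl1, which lengthens very long fatty acids, differed by -0.23. Acss2, which makes acetyl-CoA from acetate, differed by 0.01 (95% interval -0.21 to 0.23) and Aacs, which activates acetoacetate, by -0.15. Lysosomal genes had a median of -0.05 with 17 of 25 negative, and of -0.12 without both replicate 3 arrays. Lipa, the lysosomal acid lipase, was the 1 of them without overlap, at 624, 624 and 667 at 30 months and 729, 773 and 693 at 18 months. Apolipoprotein and lipid transport genes had a median of -0.03, 6 positive and 7 negative.

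Markers of the main neural cells differed little between the 2 ages, and none of them passed. Gfap, the filament of astrocytes, had 10092, 9431 and 12645 at 30 months, against 10331, 10642 and 12388 at 18 months, a difference of -0.06 (95% interval -0.33 to 0.21). Mbp, myelin basic protein, differed by -0.12 (-0.54 to 0.30) and Chat, which makes acetylcholine in motor neurons, by 0.06 (-0.40 to 0.52). Myelin and oligodendrocyte genes had 12 positive and 9 negative of 21 and a median of 0.02. Sox10, a transcription factor of the oligodendrocyte lineage, was without overlap at 1073, 1083 and 1041 at 30 months and 928, 931 and 1014 at 18 months. Of 27 astrocyte genes 19 were negative, with a median of -0.04. Cp, ceruloplasmin, differed by -0.32 on 1 probe set and -0.07 on the other, and Timp1, a protease inhibitor, by -0.43, while Slc4a4, a bicarbonate transporter, differed by 0.12.

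Neuronal lists had medians between -0.0017 and 0.10, with no member past the threshold. The motor neuron and cholinergic list had 9 positive of 13 and a median of 0.03, against 6 of 13 and -0.01 without both replicate 3 arrays, and Slc5a7, the choline transporter, differed by 0.21. Neurofilament, axonal transport and tubulin genes had 17 positive of 23 and synaptic vesicle and growth cone genes 15 of 23, with medians of 0.03 and 0.05. Between the replicate 3 arrays alone the synaptic median was -0.03. Gap43, of growth cones, differed by 0.17, whereas Basp1, its partner at the membrane, had 722, 819 and 536 at 30 months, against 935, 1219 and 883 at 18 months, a difference of -0.56 without overlap. GABA and glycine genes had 9 positive of 15 and a median of 0.10. Slc6a11 led them, and Glrb, the glycine receptor beta subunit, and Gad2, which makes GABA, differed by 0.24 and 0.26. Glutamate transmission genes had 10 positive of 14 and neuropeptide genes 12 of 18, with medians of 0.05 and 0.02. Chga, chromogranin A of dense-core vesicles, had 1376, 1542 and 1507 at 30 months, against 1208, 1171 and 1299 at 18 months, without overlap and with a difference of 0.27. Scn3a, a sodium channel, differed by 0.46, in a list of 22 ion channels with 11 on each side, and of 21 calcium buffers and pumps 10 were positive and 11 negative.

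Lists of energy and protein upkeep had medians between -0.08 and 0.0045. Of 57 oxidative phosphorylation genes 21 were positive and 36 negative, with a median of -0.03, and none passed. Ndufa9, of complex I, had 1578, 1779 and 1635 at 30 months, against 1895, 1902 and 1866 at 18 months, a difference of -0.18 without overlap. Of 38 cytosolic ribosomal protein genes 34 were negative, with a median of -0.08 and a range of -0.29 to 0.31, and their median was -0.12 without both replicate 3 arrays. Proteasome and ubiquitin genes had a median of 0.0045, glycolysis -0.0044, chaperones -0.01 and autophagy -0.01. Cct5, of the cytosolic chaperonin, differed by -0.27 without overlap. Antioxidant and metal-binding genes had 24 negative of 34 and a median of -0.07 (-0.15 without both replicate 3 arrays), with Prdx6, a peroxiredoxin, at 0.28. Mgst1, a membrane glutathione transferase, had 2645, 2846 and 3445 at 30 months, against 2851, 3221 and 2583 at 18 months, a difference of 0.04 (95% interval -0.23 to 0.32). Cell cycle arrest and DNA damage genes had 8 positive of 12, and Cdkn1a, the p21 inhibitor, differed by 0.22, while Cdkn2c, the p18 inhibitor, differed by -0.37.

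**Figure D4:**
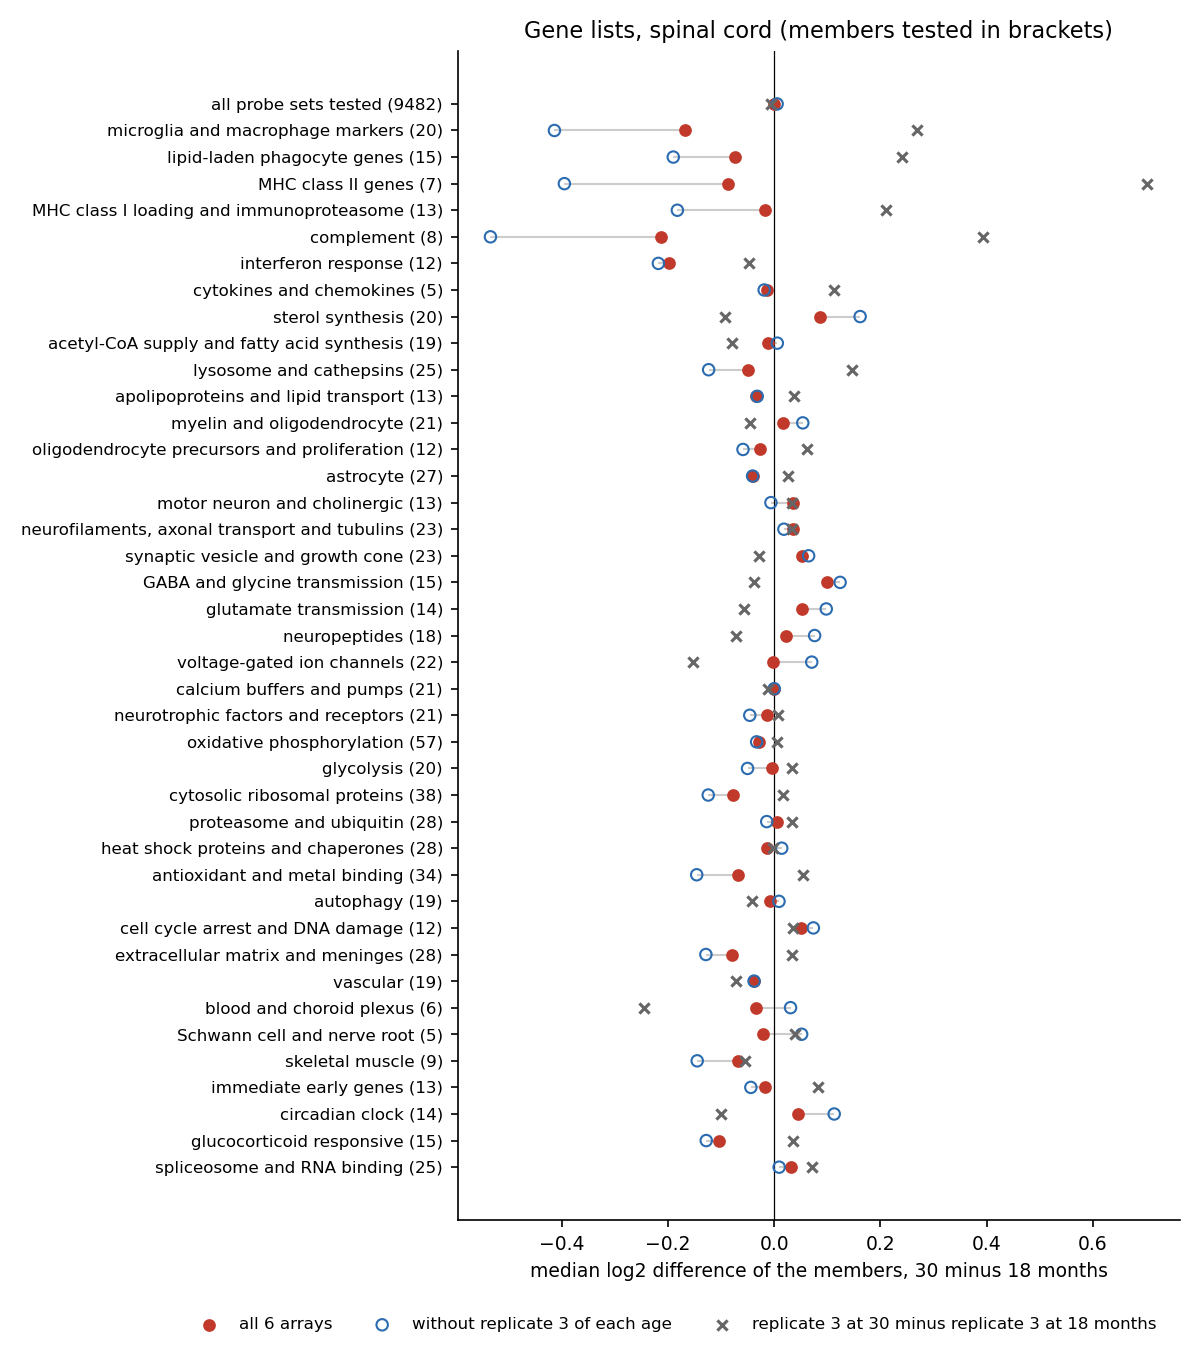
Median log2 difference of 30 minus 18 months over the tested members of each gene list with at least 5 of them, and over all probe sets at the top, for all 6 arrays (red), without replicate 3 of both ages (open blue) and between the 2 replicate 3 arrays (grey cross). Complement, microglial and class II lists lie left of 0 in the first 2 and right of 0 in the third, while the all-array medians of all lists stay between -0.21 and 0.10.

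Hormone-responsive and structural genes held a few wider differences. Sgk1, a kinase induced by glucocorticoids, had 1184, 999.7 and 1103 at 30 months, against 2272, 2397 and 1243 at 18 months. The groups did not overlap, replicate 3 at 18 months being the closest to 30 months, and the difference was -0.79 (95% interval -1.51 to -0.08, limma adjusted p = 0.9998). Sgk1 signals of 952, 1880 and 1345 at 6 months overlapped the arrays of both later ages. Of 15 glucocorticoid-responsive genes 10 were negative with a median of -0.11, and Nr3c2, the mineralocorticoid receptor, differed by 0.34. Of 14 clock genes 11 were positive with a median of 0.05 (0.11 without both replicate 3 arrays), and Nr1d1, the repressor REV-ERB alpha, differed by 0.24. Matrix and meningeal genes had 21 negative of 28 and a median of -0.08 (-0.13 without both). Mgp, matrix Gla protein, differed by -0.45. Spliceosome and RNA-binding genes had 18 positive of 25 and a median of 0.03.

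Transcripts of skeletal muscle differed between arrays more than between ages. Acta1, skeletal muscle actin, had 296, 344 and 321 at 30 months, against 276, 1529 and 503 at 18 months. Ckm, muscle creatine kinase, had 152, 141 and 179 at 30 months, against 115, 688 and 277 at 18 months. Replicate 2 at 18 months carried the high value in both. The summed signal of the 3 muscle markers on the array was 477 to 544 at 30 months and 447 to 2451 at 18 months. Tnnt3, a fast-muscle troponin, was under the floor on all 3 arrays at 30 months and 2 at 18 months. The part of muscle tissue in other differences was tested only by adding the muscle list as a covariate, under which Limk1 differed by 0.87 (limma adjusted p = 0.106). Ttr, made by choroid plexus, differed by 0.01, and Cd3d and Cd79b, which define T and B cells, were under the floor on all 9 cord arrays. Cd3e, a further T cell marker, was above it on 2 of the 9, at 71.8 on replicate 3 at 18 months and 81.1 on replicate 2 at 6 months.

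The late change was set against the early change, 18 minus 6 months, whose probe sets past the threshold numbered 69, or 0.728%. Both changes use the same 18-month arrays, so an unusual value there pushes them in opposite directions. Values are therefore given side by side. Lgals3 differed by -0.43 late and 2.13 early, Gpnmb by -0.35 late and 2.04 early, and RT1-Bb by -0.21 late and 1.92 early. Medians over lists were -0.09 late and 1.06 early for class II genes, -0.21 late and 0.78 early for complement, and 0.09 late and -0.44 early for sterol synthesis. The median absolute difference over all probe sets was 0.077 late and 0.121 early.

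A test of the late minus the early change passed for 1 probe set, or 0.0105%, which was Limk1 at 1.55 (95% interval 1.06 to 2.05, limma adjusted p = 0.0249). Its early change was -0.67 (adjusted p = 0.0251). At an unadjusted p under 0.05 there were 475 probe sets, or 5.01%. The genes next in rank were Lgals3 at -2.56 (limma adjusted p = 0.0879), Gpnmb at -2.40 (adjusted p = 0.136) and Acat2 at 1.13. Rtn4, Srebf1 and Golm1, a Golgi membrane protein, followed at 1.75, -0.995 and -1.29, then Fcgr2b, C3 and Mpeg1 at -1.79, -1.08 and -1.21. On these probe sets the late changes of Rtn4, Srebf1 and Golm1 were 0.87, -0.30 and -0.32. On their second probe sets the late changes were 0.057, -0.085 and 0.018. The second Mpeg1 probe set had a late minus early change of -1.64. Without replicate 3 of both ages 49 probe sets passed this test, or 0.517%, of which 13 had a more positive late change and 36 a more negative one.

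The same late change in the oculomotor nucleus served as the comparison between tissues. There 1 probe set passed, or 0.0105%: RT1-Da, at 1424, 823 and 929 at 30 months and 458, 411 and 418 at 18 months, a rise of 1.26 (limma adjusted p = 0.0313). In the cord RT1-Da had 2103, 2787 and 3927 at 30 months, against 2867, 3539 and 2654 at 18 months, and every cord array of the 2 ages was above every oculomotor array. The tissue difference in the late change, cord minus oculomotor nucleus, passed for 0 of 9482 probe sets, or 0%, in limma, with 314, or 3.31%, at an unadjusted p under 0.05. RT1-Da ranked first at -1.34 (95% interval -1.91 to -0.76, unadjusted p = 0.000109), then Limk1 at 0.82 (unadjusted p = 0.000417). Cd74 stood at -1.19, Srebf1 at -0.62, Dynll2 at 0.72, Retreg3 at 1.37 and Rtn4 at 1.02. Pianp, a ligand of the immune receptor PILR alpha, stood at 0.76, Map3k1, a kinase kinase kinase of stress signalling, at -0.65 and Extl1, of heparan sulphate synthesis, at -0.99. Without replicate 3 of both cord ages 15 probe sets passed, or 0.158%, 4 more positive in the cord and 11 more negative. Arrays were left out on the cord side only. The oculomotor arrays at 30 months were all kept, with first component scores of 2.34, 14.2 and -16.6. Gpnmb, Lgals3, RT1-Da, RT1-Db1, Cd74, C1qa, C3, Mpeg1, Cyba and Ifi30, the lysosomal thiol reductase, were among the more negative, at -1.76 to -0.89. Retreg3, Rtn4 and Limk1 were among the more positive, at 1.82, 1.48 and 0.98.

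A rule after the one in the design text, but without the calls that are part of it, was applied to the 2 later ages. The authors' full rule could therefore take other probe sets. The rule used here asked for arrays without overlap and a ratio of means over 1.70. It took 7 probe sets, or 0.0738%, of which 4 were higher (0.0422%) and 3 lower (0.0316%). Higher were Limk1, Slc6a11, C10h17orf49 and Plpp3, a lipid phosphatase, at 134, 197 and 257 at 30 months and 101, 44.1 and 117 at 18 months. Lower were Sgk1, Cnksr3 and Slc6a4, the serotonin transporter, whose signals were 21.0, 40.2 and 73.5 at 30 months and 81.2, 83.0 and 97.2 at 18 months, with 2 arrays at 30 months under the floor. Of these 7, Limk1 passed the limma threshold.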

How the data were processed

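Per the design text, the authors used Affymetrix Microarray Suite 5.0, and their deposited intensities are linear-scale signals, 1 for each probe set on each array. Depth has no meaning for arrays, and their number limits the precision. No genome build is named. The 18 arrays were scaled to a common 2% trimmed mean, raised to a floor at the pooled 20th percentile and log2-transformed. After 57 control probe sets were removed, 9482 of 15923 with a mean above the pooled 40th percentile (7.459 on the log2 scale) were kept. The platform annotation, updated by the RefSeq gene table of assembly GRCr8, gave 12789 probe sets 1 gene, 312 several and 2822 none.

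limma 3.58.1 in R 4.3.3 fitted 6 group means to all 18 arrays (empirical Bayes with trend), 2-sided, with Benjamini-Hochberg adjustment over the probe sets kept. Fold differences come from mean log2 signals, on values raised to the floor, which understates changes of low genes. Genes named are the 15 smallest p-values in each direction (1 probe set per gene), 10 each for the tissue and the late minus early differences, up to 4 smallest p-values per list, a fixed panel of 22 genes, and others chosen after their values were seen. Members and the 42 gene lists, plus 3 added ones, were chosen with earlier results of these data known. The pipeline was tested on simulated data. Alternatives were other scalings, floors, filters, array sets, blocks and covariates.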

Additional observations from a re-analysis of the deposited data

Results flagged for a closer look

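The change of Limk1 differed between the 2 phases of ageing in the cord: the late change minus the early change was 1.55 on the log2 scale by the test of the difference itself (95% interval 1.06 to 2.05, limma adjusted p = 0.0249), with the 18-month arrays shared by both changes. All 3 arrays at 30 months and all 3 at 6 months lay above all 3 at 18 months. Under 19 alternatives the difference ran from 1.34 to 1.89 and passed the threshold in 14, with limma adjusted p-values of 0.000248 to 0.635. The part of the 18-month arrays in this difference was not tested further.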

How the results depend on the processing

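For 30 against 18 months, 1 probe set passed. The count was 0 after quantile normalization or median centring, 0 with the 9 cord arrays or the 6 arrays alone, 0 with the muscle list as covariate, 5 with no filter on low signals, 7 by the no-overlap rule and 9 without replicate 3 of both ages. It stayed at 1 with the outlying arrays of the first component as a block. That block gives replicate 3 the same shift at both ages, whereas many immune genes deviated there in opposite directions. Leaving out 1 array gave 0 to 8, and 8 only without replicate 3 at 18 months. For the late minus early change, 1 passed, against 0 with the cord arrays alone, 4 with the outlying arrays of the first component as a block, 0 to 32 leaving out 1 array (32 without replicate 3 at 18 months, 21 without replicate 3 at 30 months) and 49 without both. For the tissue difference, 0 passed, against 1 with no filter, 0 to 5 leaving out 1 array (5 without replicate 3 at 18 months) and 15 without both. The cause of these shifts was not tested. Deviations of same-numbered pools at 30 and 18 months had correlations of 0.168, 0.0789 and 0.450 for replicates 1, 2 and 3. For the cord at 18 and 6 months they were -0.221, 0.0322 and -0.260. The titles give only replicate numbers, which were not taken as pairing in the main fit. With the replicate number as a block, 0 probe sets passed for 30 against 18 months (Limk1 adjusted p = 0.0586 in limma), 1 for late minus early and 0 for the tissue difference. The other 29 genes ranked first on either side, none of which passed in the main fit, gave 567 combinations of gene and alternative. In 560 the gene still did not pass, in 7 it passed and in 0 it reversed. The 7 came from fits without replicate 3 at 18 months, alone or together with replicate 3 at 30 months. Of 899 list medians under the alternatives, 28 were marked as moved, by a rule that did not follow the spread of the members. The chaperone median was marked on going from -0.0143 to 0.0037 with median centring. The class II median was not, on going from -0.09 to -0.40 without both replicate 3 arrays. The count therefore does not measure how stable the medians are. Signals near the floor limit what can be said of low genes such as Slc6a4 and Plpp3.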

Other observations

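With no filter on low signals, 4 further probe sets with arrays under the floor of 66.4 passed the threshold, and they were not among the probe sets tested above. They were chosen after their values were seen. Tnfrsf9, the lymphocyte costimulatory receptor 4-1BB, had 116, 98.0 and 145 at 30 months, against 36.3, 34.3 and 57.2 at 18 months. At 6 months Tnfrsf9 had 20.1, 27.1 and 22.6. All 3 arrays at 18 months lay under the floor, and against the floor the difference was 0.83 (limma adjusted p = 0.00494). A probe set of Pld1, phospholipase D1, had 119, 90.3 and 102 at 30 months, against 66.9, 63.9 and 63.7 at 18 months, with 2 of the 3 arrays at 18 months under the floor (difference 0.63, limma adjusted p = 0.0116). The 2 brighter Pld1 probe sets differed by -0.15 and 0.0019 and did not pass. The other two had no gene name and differed by 0.07 (adjusted p = 0.000231) and -0.23 (adjusted p = 0.0141). A group held at the floor has almost no spread of its own, so a p-value here is not comparable with those of probe sets above the floor.

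Eml2, a microtubule-binding protein, had 969, 940.1 and 1698 at 30 months, against 273, 422 and 1513 at 18 months. The groups overlapped, and the difference was 1.05 (limma adjusted p = 0.9998). Without replicate 3 at 18 months it was 1.77 (adjusted p = 0.0299), and without replicate 3 of both ages 1.49 (adjusted p = 0.0971).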
